A study of Mus musculus with 12 samples.

Results

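Poly(A) RNA of 6 non-tumoral livers was compared by genotype, with 4 livers from p21+/Tert mice (p_961, p_663, p_941 and NT_992) and 2 from p21+/TertCi mice (L981_CI and L984_CI). These are the non-tumor libraries, by their deposited labels, among 12 in all, and the other 6 are liver tumors. In p21+/Tert mice an additional Tert is expressed from the promoter of Cdkn1a, the gene of the cell cycle inhibitor p21, and in p21+/TertCi mice the same promoter drives a catalytically inactive Tert. Both genotypes keep the endogenous Tert gene, received the standard diet and carried a liver tumor, and the study used aged mice, so no liver here lacks a transgene or comes from a tumor-free mouse. The livers are named by their titles. The counts of p21+/Tert liver p_961 are deposited under the number of another p21+/Tert mouse, whose tumor is also in the series, and whether both came from 1 animal is not known.

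Telomerase adds telomeric repeats to chromosome ends through the reverse transcriptase TERT, which copies an RNA template. The inactive enzyme allows effects of the protein to be separated from effects of repeat synthesis. The male and female liver differ in many genes set by the pulses of pituitary growth hormone, which act through STAT5B, and resident macrophages (Kupffer cells) and hepatocytes both respond to interferon and to the cytokines of the acute phase.

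Between 14571716 and 18654385 reads were counted on genes in the p21+/Tert livers, and 22094500 and 23932529 in livers L981_CI and L984_CI, so depth did not overlap between the genotypes. The sequencing run of each library is not given, and genotype, depth and run cannot be told apart. In every liver Xist had between 3 and 6 reads and Y-linked genes such as Kdm5d were read at 13 to 23.7 CPM (read counts normalised to library size), the pattern of male animals. Hepatocyte markers summed to between 34049 and 56764 CPM in p21+/Tert livers, and to 37596 and 47137 CPM in livers L981_CI and L984_CI, so the liver label is met. In bulk tissue, fewer cells of a type and less RNA per cell cannot be told apart.

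By edgeR, no gene differed between the genotypes at an adjusted p under 0.05. The edgeR quasi-likelihood test was fitted to 14009 genes in the 6 livers, 0 were called (0%), and the smallest Benjamini-Hochberg adjusted p was 0.29. At an unadjusted p under 0.05, 600 genes (4.28%) were higher and 564 (4.03%) lower in p21+/TertCi livers. DESeq2 on the same genes called 64 higher and 110 lower. All names below are therefore given with their values and adjusted p, and none passed the adjusted edgeR threshold.

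The 2 p21+/TertCi livers were also unlike each other. On principal components of all genes, the first component (32.4% of the variance) placed livers L981_CI and L984_CI at 36.3 and 28.7, and p21+/Tert livers p_961, p_663, p_941 and NT_992 at -33.6, -25.1, -17.7 and 11.4. The genotypes did not overlap there (two-sided exact permutation test over 15 splits, p = 0.0667, the smallest that this design can give). The difference between the group means was 48.8. With the components computed again, it was 3.59 without liver p_961 (exact permutation p = 0.9) and 21.4 without liver p_663 (exact permutation p = 0.7). The separation on the first component was thus not stable. A first component computed again can be another axis, so these values do not show that the separation rested on those livers. On log2(CPM + 1) values the exact permutation p was 0.133. The second component (29.7%) set the p21+/TertCi livers at opposite ends, L981_CI at -36.4 and L984_CI at 47.9, outside the p21+/Tert range of -12.4 to 11.9. The correlation of variance-stabilized counts was 0.97 between livers L981_CI and L984_CI and from 0.978 to 0.991 between pairs of p21+/Tert livers.

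A gene was said to rest on both livers when L981_CI and L984_CI lay on the same side of all 4 p21+/Tert livers. That held below the range for 1195 genes (8.53%) and above it for 1084 (7.74%). Liver L981_CI alone lay above the range in 1476 genes (10.5%) and below it in 1210 (8.64%), and liver L984_CI alone lay above it in 1927 (13.8%) and below it in 1369 (9.77%). In another 1521 genes (10.9%) the livers were outside on opposite sides. Of the 1164 genes at an unadjusted p under 0.05, 904 had both livers outside on one side, 104 rested on liver L981_CI, 124 rested on liver L984_CI, 28 had the livers on opposite sides, and in 4 both lay inside the range. Of the 174 genes called by DESeq2, 165 had both livers outside on one side, 6 rested on liver L981_CI and 1 on liver L984_CI.

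**Figure D1:**
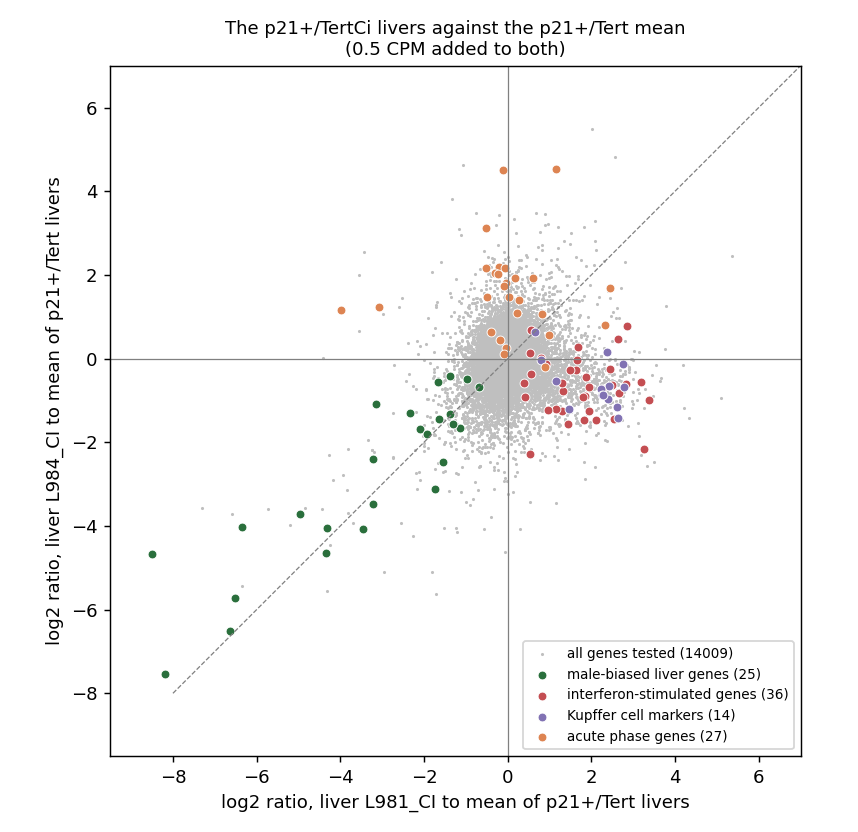
Log2 ratio of liver L981_CI (horizontal) and liver L984_CI (vertical) to the mean of the 4 p21+/Tert livers, with 0.5 CPM added to both; each point is 1 of 14009 genes, and the dashed line marks equal ratios. Most male-biased genes lie at low values on both axes, though some, such as Mup7, lie away from the dashed line. Interferon-stimulated and Kupffer cell genes spread to the right (high in L981_CI) and acute phase genes upward (high in L984_CI).

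The targeted genes did not separate the genotypes. Tert was read at 16.3, 10.8, 10 and 13.3 CPM in p21+/Tert livers p_961, p_663, p_941 and NT_992 and at 10.4 and 12.2 CPM in livers L981_CI and L984_CI, a difference on the log2 scale of -0.16 ± 0.27 (SE; adjusted p = 0.891). Both p21+/TertCi livers lay inside the p21+/Tert range, and counts per gene cannot tell active from inactive Tert or transgene from endogenous reads. Cdkn1a was read at 1.53, 3.57, 3.89 and 26.6 CPM against 6.78 and 49.3 CPM (1.64 ± 1.08, adjusted p = 0.675). Liver L984_CI lay above all the others, liver L981_CI did not, and with liver L984_CI left out the log2 fold change was -0.41.

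Among the 15 genes for telomerase subunits and assembly factors, Tert included, 2 were lower at an unadjusted p under 0.05 (4.03% of all genes were) and 0 higher, and 4 had both p21+/TertCi livers below the range (8.53% of all genes). Dkc1 (dyskerin, which binds the telomerase RNA) was at 11.9, 12.6, 11.2 and 16.1 against 7.02 and 7.86 CPM (log2 fold change -0.80 ± 0.25, adjusted p = 0.569), and Nhp2, another protein of the same particle, was at 26.3 to 37.7 against 19.5 and 25.4 CPM (-0.53 ± 0.22, adjusted p = 0.589). The whole list had a median log2 fold change of -0.07, and all tested genes 0.03. Of 14 genes for shelterin and CST, the complexes that cap telomeres, 0 passed an unadjusted p of 0.05 in either direction. Terf2ip (RAP1) had the smallest p of them, with 14.5 to 20 against 20.9 and 25.9 CPM (0.37 ± 0.21, adjusted p = 0.63).

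Genes of the male liver were lower in both p21+/TertCi livers. Of 26 male-biased genes in the tables, 25 were tested, 21 were lower at an unadjusted p under 0.05 (4.03% of all genes were), 0 were higher, and 18 had both livers below the whole p21+/Tert range (8.53% of all genes). DESeq2 called 17 of the 25 lower. Their median log2 fold change was -2.61. The list and the direction were known from earlier results of these data, so the count is a description and not independent evidence.

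Hsd3b5, a hydroxysteroid dehydrogenase made in male liver, was at 302, 327, 60.2 and 29.7 CPM in p21+/Tert livers and at 0.119 and 0.468 CPM in livers L981_CI and L984_CI, which is 3 and 10 reads. Its log2 fold change was -9.27 ± 1.53 (adjusted p = 0.29). All 4 p21+/Tert livers were well above both p21+/TertCi livers, although p_941 and NT_992 were far below p_961 and p_663. Slco1a1, an organic anion transporter, was also higher in every p21+/Tert liver, with 314, 222, 110.3 and 58.8 CPM against 15.7 and 9.97 CPM (-3.78 ± 0.73, adjusted p = 0.34).

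Elovl3, a fatty acid elongase, was at 136, 128, 168 and 612 CPM against 12.7 and 15.3 CPM (log2 fold change -4.22 ± 0.82, adjusted p = 0.34). Here liver NT_992 was the highest of the p21+/Tert livers, and the p21+/TertCi livers were close to each other. Susd4, a complement regulator, was at 31.7, 15.3, 20.6 and 25.7 against 5.08 and 6.97 CPM (-1.95 ± 0.34, adjusted p = 0.34). Cyp4a12a, a fatty acid hydroxylase, was at 301, 168, 159 and 209 against 41.5 and 84.7 CPM (-1.73 ± 0.40, adjusted p = 0.444). Neither gene overlapped between the genotypes.

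In some male-biased genes the difference was carried by 3 of the 4 p21+/Tert livers. Serpina1e, a form of alpha-1 antitrypsin, was at 11899, 13046 and 8110.3 CPM in livers p_961, p_663 and p_941, at 806 CPM in liver NT_992, and at 909 and 761 CPM in L981_CI and L984_CI. Moxd1, a monooxygenase-like gene, had 416, 1398 and 1201 reads in livers p_961, p_663 and p_941, none in liver NT_992, and 0 and 1 read in L981_CI and L984_CI. Selenbp2 was at 673, 665, 292 and 40.3 CPM against 20.2 and 16.1 CPM. For these genes liver NT_992 stood near the p21+/TertCi livers, as it did on the first principal component. Dbp, a clock output gene, was also at 4.51 CPM in liver NT_992 against 434, 382 and 173 CPM in the other p21+/Tert livers and 36.7 and 47.3 CPM in L981_CI and L984_CI, and its part in these values was not tested.

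The 7 members of the list that did not have both livers below the range were Mup20, Cyp2u1 and Cyp2d9, where L981_CI alone was below, Serpina1e and Ugt2b38, where L984_CI alone was below, and Moxd1 and C6, where both lay inside. Mup20 (darcin, the male urinary pheromone) was at 5992, 8012, 4215 and 1910.3 CPM against 572 and 2369.8 CPM, so its difference (log2 fold change -1.77 ± 0.75, adjusted p = 0.594) rested on liver L981_CI. Ces2b, the member not tested, had between 0 and 9 reads in every liver.

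**Figure D2:**
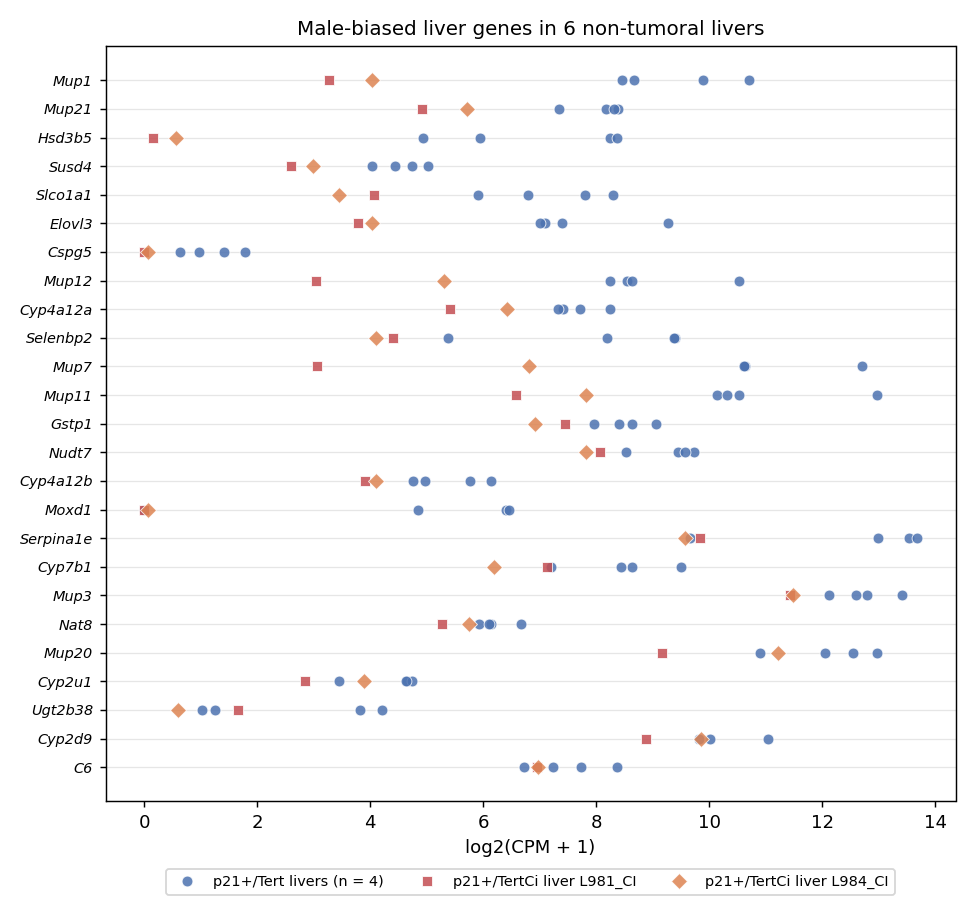
Level of the 25 tested male-biased genes, as log2(CPM + 1), in each of the 6 livers, with genes ordered by unadjusted p from the top. In the upper rows both p21+/TertCi livers (square, diamond) lie left of all p21+/Tert livers (circles); in Serpina1e and Moxd1 1 circle lies beside them.

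The major urinary proteins (Mup), which carry pheromones and are secreted by the liver into blood and reach the urine, are a family with members in this list. The summed level of the 20 Mup symbols was 52786, 21638, 19798 and 14934 CPM in p21+/Tert livers p_961, p_663, p_941 and NT_992 (5.28%, 2.16%, 1.98% and 1.49% of the scaled library) and 3705 and 6247 CPM in livers L981_CI and L984_CI (0.370% and 0.625%). Of 19 Mup genes tested, 18 were lower at an unadjusted p under 0.05 (4.03% of all genes were). In 17 of them both p21+/TertCi livers lay below the range (8.53% of all genes). The genes share near-identical sequence, and how reads with several matches were counted is not given in the sources used here, so the split between members is uncertain. Hba-a1 and Hba-a2 had equal reads in every liver, such as 1641 each in p_961, so a read may be counted for more than 1 gene. The Mup sum may then hold the same reads more than once, and the Mup genes counted here may not be separate observations.

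How alike the members are can be seen near the start site. The lines give 30 bases around the TATA box (in capitals) from RefSeq promoters on GRCm38.p6, all on the minus strand, for 2 genes of the main cluster (Mup2, Mup10), for Mup21 and Mup3 at its end, and for Mup4, the member that was not lower. The windows are chr4:60139866-60139895, chr4:60582168-60582197, chr4:62150832-62150861, chr4:62087311-62087340 and chr4:59960679-59960708.
Mup2: gaacccagagagTATATAAggacaagcaaa
Mup10: gaactcagagatTATATAAggacaagcaaa
Mup21: gaaaccagagagTATATAAggacaagcaaa
Mup3: gaaaccagagagTATATAAggacaagcaaa
Mup4: gaacccagagcaTATATAAagacaagcaaa

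Mup9, Mup15 and Mup17 had the same 30 bases as Mup2, whereas Mup10 differed at 2, Mup21 and Mup3 at 1, and Mup4 at 3. Mup1 was at 947, 405, 1658 and 349 CPM in p21+/Tert livers and at 8.61 and 15.3 CPM in p21+/TertCi livers (log2 fold change -6.13 ± 0.89, adjusted p = 0.29). Mup7 was at 6629, 1571, 1588 and 1558 against 7.34 and 111 CPM, the lowest value again in liver L981_CI. Mup21 was at 333, 288, 161 and 318 against 29.3 and 51.5 CPM (-2.77 ± 0.41, adjusted p = 0.29). Mup3 kept a high level in both groups, with 10828, 7043, 6207 and 4464 against 2746 and 2852 CPM (-1.35 ± 0.46, adjusted p = 0.582). Mup4 was low in every liver, between 0.248 and 1.8 CPM.

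Female-biased liver genes were higher in part. Of 23 tested, 7 were higher and 0 lower at an unadjusted p under 0.05 (4.28% of all genes were higher), and 6 had both p21+/TertCi livers above the range (7.74% of all genes). Their median log2 fold change was 1.30, but 0.25 without liver L981_CI, so it rested largely on that liver. Another 7 were above the range in liver L981_CI alone (10.5% of all genes) and 1 in liver L984_CI alone, 3 were below it in L984_CI alone, and in 3 the livers were on opposite sides.

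A1bg, a plasma glycoprotein of female liver, had 0, 0, 5 and 13 reads in p21+/Tert livers and 770 and 77 reads in livers L981_CI and L984_CI. That is at most 0.644 CPM against 30.5 and 3.6 CPM (log2 fold change 5.99 ± 1.15, adjusted p = 0.34), with liver L981_CI well above L984_CI. Cyp2a22 was at 1.66, 1.96, 2.16 and 13.4 against 22.1 and 51.6 CPM (2.92 ± 0.82, adjusted p = 0.555). Cyp2b9 was at 9.89, 0.0595, 1.15 and 83.5 against 180.4 and 20.5 CPM, with the groups overlapping. Of the 28 female-biased genes in the tables, 5 were not tested, and Sult3a1, one of them, had 316 reads in liver L981_CI and at most 7 in any other liver.

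The growth hormone pathway itself, listed after these results were seen, did not differ in the same way. Of 15 genes, 2 were higher and 0 lower at an unadjusted p under 0.05 (4.28% and 4.03% of all genes). Both p21+/TertCi livers were above the range in 3 of them (7.74% of all genes). The receptor Ghr was at 631, 565, 363 and 469 against 458 and 421 CPM (log2 fold change -0.21 ± 0.29, adjusted p = 0.862), and Stat5b at 54.6 to 82.2 against 79.4 and 56.5 CPM. The targets Igf1 (502 to 699 against 894 and 719 CPM, adjusted p = 0.698) and Socs2 (6.69 to 55.9 against 28.9 and 18.7 CPM, adjusted p = 0.973) gave no lower values. For Igf1 both p21+/TertCi livers were above the range. The repressors that shape sex bias went separate ways. Bcl6, which represses female genes in males, was at 33.8, 118, 45.2 and 24 against 31.5 and 16.1 CPM, and Cux2, which is female-specific, was at 6.51 CPM in liver L981_CI against 0.234 CPM in L984_CI and 0.265 to 1.31 CPM in p21+/Tert livers. The genes that were higher were Esr1, the estrogen receptor (18.3 to 32.3 against 47.2 and 44.3 CPM, 0.78 ± 0.25, adjusted p = 0.569), and Prlr, the prolactin receptor (83.4 to 165 against 301 and 174 CPM, 0.92 ± 0.37, adjusted p = 0.589).

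STAT factors bind the letters TTCNNNGAA, a palindrome. In RefSeq promoters from 250 bases before to 50 after the start site, which were found for 10428 of the tested genes, 8.62% held these letters, against 1 of 16 male-biased (6.25%) and 3 of 18 female-biased genes (16.7%). These counts describe the letters in short windows and say nothing of binding.

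The other genes of smallest p that rested on both livers were then read by the rule of 12 in each direction. Those lower were Hes6, Ociad2, Mup1, Aldoc, Mup21, Mup13, Ttc39c, Foxo4, Hsd3b5, E130012A19Rik, Susd4 and Ndufb3, with adjusted edgeR p from 0.29 to 0.34. Hes6, a transcriptional regulator of the Hes family, was at 173, 156, 123 and 103 against 36.4 and 31.2 CPM (log2 fold change -2.04 ± 0.28). Aldoc, the brain-type aldolase, was at 15, 16.7, 19.8 and 20.2 against 5.99 and 4.12 CPM (-1.82 ± 0.27). Foxo4, a forkhead factor downstream of insulin, was at 40.7 to 47.9 against 20.9 and 21.9 CPM (-1.07 ± 0.17), and Ndufb3, a subunit of respiratory complex I, at 46.2 to 59.3 against 25.9 and 26 CPM (-1.02 ± 0.18). In these 4 genes livers L981_CI and L984_CI were within a narrow band of each other.

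Those higher were Dynll1, Tnfrsf23, 6330416G13Rik, Ucp2, Fos, Golm1, Il18bp, Il1rn, Cebpb, Fas, Ccdc120 and Igfbp1, with adjusted edgeR p in the same range. Dynll1, a dynein light chain, was at 13.1, 11.2, 12.1 and 15.9 CPM against 32.8 and 57.8 CPM (log2 fold change 1.79 ± 0.26). Ucp2, a mitochondrial carrier, was at 15.3, 21.8, 17.2 and 32.1 against 116 and 66.8 CPM (2.08 ± 0.33). Golm1, a Golgi protein that is raised in liver disease, was at 1.37 to 2.82 against 8.81 and 11.3 CPM (2.28 ± 0.37).

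Several of the 12 have roles in inflammation. Il1rn, the interleukin-1 receptor antagonist, was at 2.46, 2.98, 1.3 and 1.59 against 13.5 and 7.82 CPM (log2 fold change 2.36 ± 0.42). Il18bp, which binds and blocks interleukin-18, was at 6.97, 10.6, 18 and 11.1 against 78.9 and 38.8 CPM (2.34 ± 0.39). Both were highest in liver L981_CI, and without that liver the adjusted p was 0.218 and 0.182. Cebpb, a transcription factor of the acute phase, was at 150, 95.8, 144 and 147 against 318 and 354 CPM (1.32 ± 0.24), and the p21+/TertCi livers were close. The death receptor Fas was at 16.2 to 22.3 against 34.2 and 49.3 CPM (1.18 ± 0.22).

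Immediate early genes, which respond within minutes to growth factors, stress or handling of tissue, were higher in part. Of 20 genes of the immediate early and heat shock list, 6 were higher and 0 lower at an unadjusted p under 0.05 (4.28% of all genes were higher), 8 had both livers above the range (7.74% of all genes), and the median log2 fold change was 0.65. Fos was at 3.19, 1.85, 0.864 and 1.59 against 16 and 11.2 CPM (2.86 ± 0.46, adjusted p = 0.29). Egr1 was at 21.7, 17.2, 4.54 and 4.21 against 72.4 and 351 CPM (4.15 ± 0.80, adjusted p = 0.34). Jun was at 7.92 to 38.4 against 51.7 and 79.2 CPM (1.34 ± 0.50, adjusted p = 0.583). Of the heat shock genes, Hspa8, Hsph1, Hsp90aa1, Hspa1a and Hspa1b were above the range in liver L984_CI alone. Hspa8, the constitutive chaperone HSC70, was at 108 to 190.2 CPM in p21+/Tert livers, 185 in L981_CI and 305 in L984_CI. Bag3, a cofactor of these chaperones, lay inside the range, at 42 to 87.8 against 44.2 and 70.2 CPM. The interval from death to freezing is not given in the sources used here, and its part in these values was not tested.

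Of 24 p53 target genes, 5 were higher and 1 lower at an unadjusted p under 0.05 (4.28% and 4.03% of all genes). Their median log2 fold change was 0.26, but 0.06 without L981_CI, 0.12 without L984_CI and 0.47 without NT_992. Besides Fas, Btg2, an antiproliferative gene, was at 10.8, 23, 16 and 17.6 against 38.5 and 36.8 CPM (1.16 ± 0.28, adjusted p = 0.473). Trp53inp1 rested on liver L984_CI, with 47.8 to 99.7 CPM in p21+/Tert livers, 64.6 in L981_CI and 339 in L984_CI. Bbc3 (Puma) was the lower gene, with 24.1 to 27.8 against 19.4 and 6.79 CPM. Mdm2, a standard p53 target, lay inside the range at 39.5 to 57.8 against 49.6 and 45 CPM. Of 16 senescence genes tested, 2 were higher (4.28% of all genes were), among them Cxcl1 (45.5, 40.5, 29.6 and 7.18 against 133 and 189 CPM, 2.39 ± 0.57, adjusted p = 0.473). Cdkn2a, the gene of p16, was above the range in liver L981_CI alone, at 1.55 CPM against 0.298 to 1.14 CPM.

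Lipid synthesis genes were lower in part. Of 21 fatty acid synthesis genes, 6 were lower (4.03% of all genes were) and 0 higher at an unadjusted p under 0.05, and the median log2 fold change was -0.65. Both livers were below the range in 6, L984_CI alone in 5 and L981_CI alone in 3 (8.53%, 9.77% and 8.64% of all genes). Acss2, which makes acetyl-CoA from acetate, was at 263, 201, 162 and 392 against 101 and 73.8 CPM (-1.54 ± 0.39, adjusted p = 0.547), and Fads1, the delta-5 desaturase, at 635 to 757 against 401 and 314 CPM (-0.93 ± 0.25, adjusted p = 0.548). Neither overlapped, whereas Scd1, the stearoyl-CoA desaturase, lay inside the range in both livers, at 4149 to 11073 against 7245 and 5797 CPM. Srebf1, the gene of the lipogenic factor SREBP1, was at 458, 615, 328 and 439 CPM, at 851 in liver L981_CI and at 91 in L984_CI, on opposite sides of the range.

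Of 25 cholesterol synthesis genes, 6 were lower and 0 higher at an unadjusted p under 0.05 (4.03% and 4.28% of all genes). Both livers were below the range in 7 (8.53% of all genes), and liver L981_CI alone was below it in 10 (8.64% of all genes). Pmvk, the phosphomevalonate kinase, rested on both livers, with 45.2, 51, 64.2 and 93.7 against 15.5 and 21 CPM (log2 fold change -1.80 ± 0.34, adjusted p = 0.34). Tm7sf2, a sterol reductase, was at 164, 133, 122 and 195 against 65.2 and 78.5 CPM (-1.10 ± 0.26, adjusted p = 0.468). Sqle, the squalene epoxidase, was at 40.7, 46.1, 67.2 and 79 CPM, at 4.48 in liver L981_CI and at 91.9 in L984_CI. The median deviation of the list from the p21+/Tert mean was -1.31 in liver L981_CI and 0.18 in L984_CI, on the log2 scale, so most of the lower values in this list came from 1 liver.

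**Figure D3:**
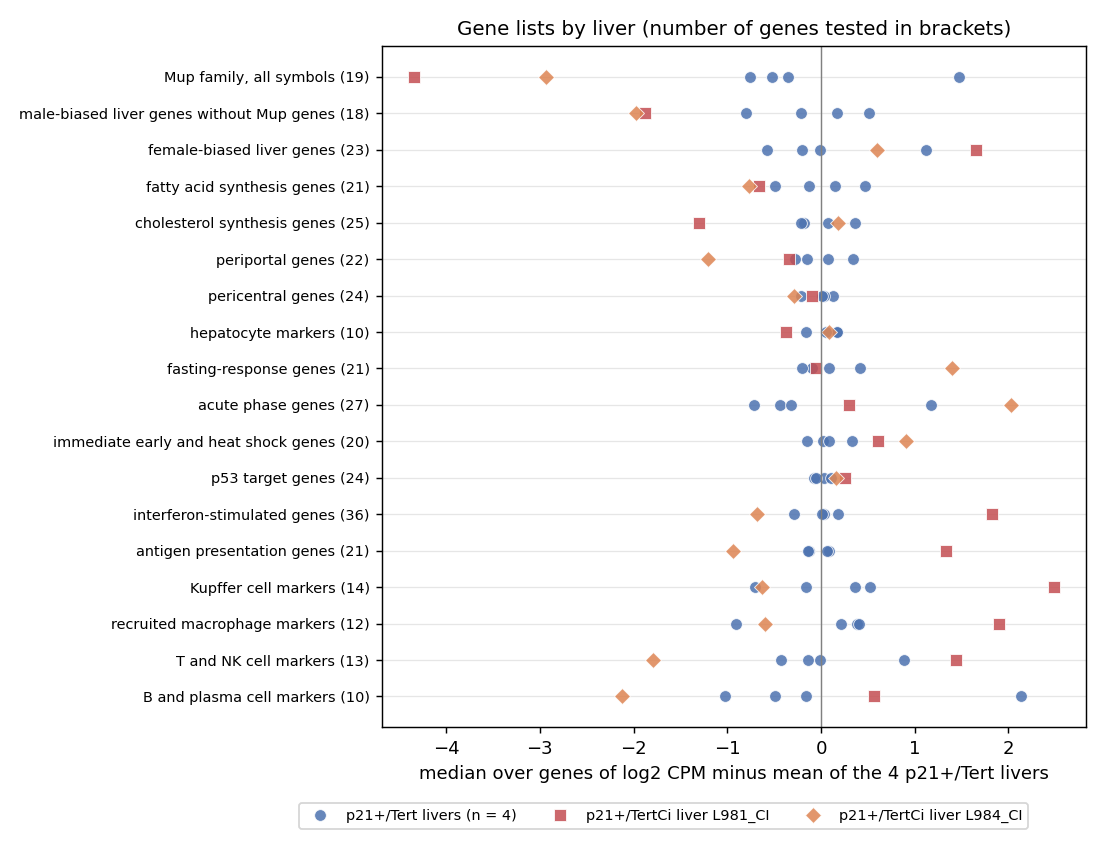
Median over the genes of each list of the log2 CPM minus the mean of the 4 p21+/Tert livers, 1 point per liver, with the number of genes tested in brackets; no error bar is drawn because each point is 1 liver. The Mup and male-biased lists lie left of all p21+/Tert livers in both L981_CI (square) and L984_CI (diamond), while interferon, antigen presentation and macrophage lists are highest in L981_CI and acute phase and fasting lists are highest in L984_CI.

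Liver L981_CI stood apart in interferon-stimulated and macrophage genes. When liver L981_CI was set alone against the 4 p21+/Tert livers, on the assumption that it varies as they do, edgeR called 78 genes higher (0.535% of 14581) and 2 lower at an adjusted p under 0.05. In the fit with both livers 0 of these were called. In liver L984_CI, 47 of the 80 genes lay beyond the p21+/Tert range on the opposite side and 26 lay inside it, while in 7 genes both livers were outside on the same side (6 above and 1 below).

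Guanylate-binding proteins, large GTPases made on interferon-gamma, were among these genes. Gbp2b was at 1.33, 0.476, 2.09 and 1.88 CPM in p21+/Tert livers, at 66.6 CPM in liver L981_CI and at 0.515 CPM in liver L984_CI. Gbp8 was at 4.31 to 5.95 CPM, at 64.5 in L981_CI and at 2.67 in L984_CI (edgeR, adjusted p = 0.00997 for L981_CI alone). Gbp4 was at 4.05 to 7.68 CPM, at 70.8 in L981_CI and at 2.95 in L984_CI. Cxcl10, a chemokine made on interferon-gamma, was at 3.12 to 5.3, 33.3 and 2.62 CPM in the same order. In each of them liver L984_CI was at or below the lower part of the p21+/Tert range.

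Over the 36 interferon-stimulated genes, 10 were higher and 0 lower at an unadjusted p under 0.05 with both livers in the fit (4.28% and 4.03% of all genes). Only 2, Iigp1 and Stat2, had both livers above the range (7.74% of all genes). Another 10 were above it in liver L981_CI alone (10.5% of all genes), and in 22 the livers were on opposite sides (10.9% of all genes). Their median deviation from the p21+/Tert mean was 1.82 in liver L981_CI and -0.68 in L984_CI, against -0.29 to 0.19 in single p21+/Tert livers. Of 21 antigen presentation genes, 16 had the livers on opposite sides (10.9% of all genes). H2-Aa, a class II chain, was at 16.1, 41.6, 19.9 and 63.4 CPM, at 362 in liver L981_CI and at 5.52 in L984_CI.

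The interferon-stimulated response element, searched as GAAANNGAAA on both strands, stood in the RefSeq promoters of 18 of 26 interferon-stimulated genes that had one (69.2%), of 11 of the 58 matched genes that were higher in liver L981_CI alone (19%), and of 3.83% of all tested genes. The lines show 30 bases with the element in capitals for genes called in liver L981_CI alone, on GRCm38.p6 and on the strand of the gene, to show the letters these genes share. They lie at chr3:142594700-142594729, chr3:142620594-142620623, chr3:142559989-142560018, chr3:142530273-142530302 (plus strand) and chr5:92349083-92349112 (minus strand).
Gbp2b: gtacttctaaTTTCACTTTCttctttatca
Gbp2: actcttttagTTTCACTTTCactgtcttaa
Gbp3: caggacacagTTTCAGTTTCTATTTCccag
Gbp7: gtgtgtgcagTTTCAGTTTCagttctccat
Cxcl10: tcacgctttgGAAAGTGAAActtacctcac

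In Gbp3 the capitals span overlapping copies of the element. These letters begin 137, 59, 45, 53 and 213 bases before the start site in the order printed. The STAT letters TTCNNNGAA stood in the promoters of 26.9% of the matched interferon-stimulated genes. They stood in 22.4% of the matched genes higher in liver L981_CI alone and in 8.62% of all tested genes. A match is a description of the reference sequence and no evidence that a factor was bound in liver L981_CI.

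Kupffer cell markers were high in the same liver. Their summed level was 2087 CPM in liver L981_CI against 355 to 606 CPM in p21+/Tert livers and 327 CPM in liver L984_CI, and 9 of 14 were above the range in liver L981_CI alone (10.5% of all genes), with 4 on opposite sides. Clec4f, a lectin restricted to Kupffer cells, was at 56.7, 88.2, 85.8 and 84.3 CPM, at 415 in L981_CI and at 39.8 in L984_CI. Csf1r, the receptor for the macrophage growth factor, was at 17.9 to 44.6, 212 and 18.6 CPM. Recruited macrophage markers summed to 478 CPM in liver L981_CI, 46.1 to 154 in p21+/Tert livers and 67.7 in L984_CI. In L981_CI that sum was mostly Lyz2, with 8634 reads, and the next marker, Cd9, had 1085. Of these 12 markers, 7 were above the range in L981_CI alone (10.5% of all genes) and 3 had the livers on opposite sides. The other 2, Trem2 and Gpnmb, lay inside it. T and NK cell markers summed to 47.4, 9.22 to 20.6 and 2.85 CPM in the same order. Which cells gave the interferon-stimulated transcripts was not tested. Cd163 was the Kupffer marker with both livers above the range, at 5.18 to 8.72 against 12 and 11.8 CPM (0.68 ± 0.27, adjusted p = 0.589).

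**Figure D4:**
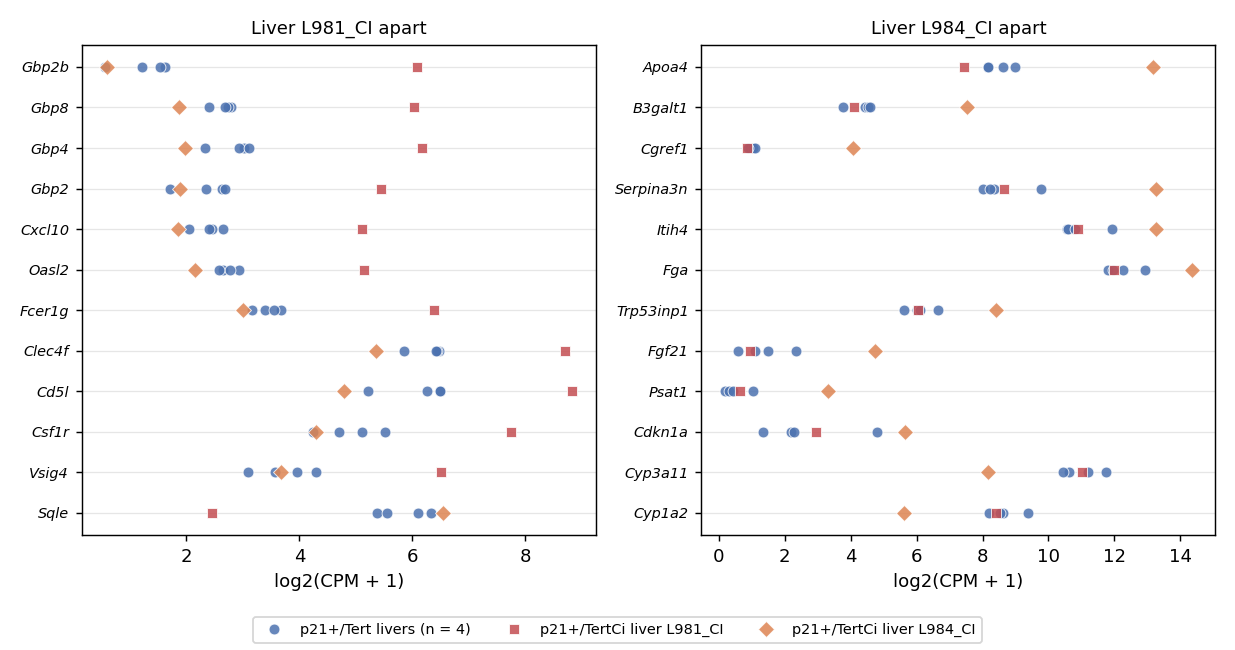
Level of genes that set 1 p21+/TertCi liver apart, as log2(CPM + 1), with L981_CI (square) on the left and L984_CI (diamond) on the right; circles are the 4 p21+/Tert livers, and the genes were picked after their values were seen. For Gbp2b liver L981_CI was at 66.6 CPM and L984_CI at 0.515 CPM; for Apoa4 liver L984_CI was at 9179 CPM and L981_CI at 174 CPM.

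Liver L984_CI stood apart in other genes. Set alone against the 4 p21+/Tert livers, it gave 3 genes higher at an adjusted p under 0.05 (0.0209% of 14351) and 0 lower. Apoa4, an apolipoprotein that rises with fat load and fasting, was at 391, 284, 289 and 509 CPM in p21+/Tert livers, at 9179 CPM in liver L984_CI and at 174 CPM in liver L981_CI. B3galt1, a galactosyltransferase, was at 12.7 to 22.9 CPM, at 182 in L984_CI and at 16.1 in L981_CI. Cgref1 was at 0.842 to 1.15 CPM, at 15.7 in L984_CI and at 0.793 in L981_CI. The adjusted edgeR p was 0.0367 for each of them, and with both livers in the fit it was 0.569.

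Fasting-response genes were high mostly in that liver, but some were high in livers NT_992 and L981_CI as well. Of 21, 3 were higher and 1 lower at an unadjusted p under 0.05 (4.28% and 4.03% of all genes). In liver L984_CI alone 9 were above the range (13.8% of all genes). Igfbp1, an insulin-suppressed binding protein for insulin-like growth factors, was at 3.92, 15.4, 19.2 and 20.3 CPM against 61 in liver L981_CI and 681 in L984_CI (log2 fold change 4.66 ± 0.89, adjusted p = 0.34), so both livers were above the range by very different amounts. Without liver L984_CI its log2 fold change was 2.04 and its adjusted p 0.309. Fgf21, a hormone of fasting and stress, was at 0.504 to 4.06 CPM, at 25.8 in L984_CI and at 0.912 in L981_CI. Angptl4 was at 57 to 84.2 CPM, at 295 in L984_CI and at 19.5 in L981_CI. Pck1, the gluconeogenic enzyme, was at 1379 to 3209 against 1513 and 3658 CPM. Cyp4a14 had 103, 83 and 219 reads in livers p_961, p_663 and p_941 and 6211 in liver NT_992. It had 6027 and 14338 reads in L981_CI and L984_CI. Cyp4a10 had 324, 161, 216 and 4557 reads in the p21+/Tert livers, in the same order, against 4553 and 5747. In these genes liver NT_992 stood with the p21+/TertCi livers.

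Acute phase genes were also high in liver L984_CI, but 1 p21+/Tert liver shared part of it. Of 27 genes, 17 were above the range in liver L984_CI alone (13.8% of all genes), 3 were higher at an unadjusted p under 0.05 (4.28% of all genes), and the median deviation was 2.03 in liver L984_CI, 0.30 in L981_CI, 1.18 in liver p_941 and -0.72 to -0.32 in the other p21+/Tert livers. Serpina3n, a protease inhibitor, was at 322, 255, 865 and 301 CPM, at 9899 in liver L984_CI and at 400.2 in L981_CI (log2 fold change 3.56 ± 1.00, adjusted p = 0.555; -0.13 without L984_CI). Saa1, serum amyloid A, was at 18222 CPM in liver p_941 and 11014 CPM in L984_CI, against 66.4 to 551 CPM in the other 4 livers, so it did not follow genotype.

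Periportal genes were low mostly in liver L984_CI. Of 22 periportal genes, 10 were below the range in liver L984_CI alone and 4 in both (9.77% and 8.53% of all genes), whereas 2 were above it in L984_CI alone and 3 in both. At an unadjusted p under 0.05, 3 were higher and 4 lower (4.28% and 4.03% of all genes). Cyp2f2, a periportal P450, was at 874, 810.2, 522 and 1021 against 380 and 220 CPM (-1.43 ± 0.38, adjusted p = 0.548). Ass1, of the urea cycle, was at 534, 638, 422 and 457 against 325 and 86.3 CPM. Cyp3a11 was at 1392 to 3432 CPM in p21+/Tert livers, 2062 in L981_CI and 287 in L984_CI. Of 26 drug-metabolizing P450 genes tested, 1 was higher and 5 lower at an unadjusted p under 0.05 (4.28% and 4.03% of all genes). In liver L984_CI alone 6 were below the range and 5 above it (9.77% and 13.8% of all genes). Albumin (Alb) lay inside the range, at 9068 to 29498 against 15229 and 19289 CPM.

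Unfolded protein and amino acid stress genes were high in liver L984_CI. Of 21, 1 was higher at an unadjusted p under 0.05 (4.28% of all genes were), and 10 were above the range in liver L984_CI alone (13.8% of all genes). The median deviation was 1.21 in L984_CI and -0.21 in L981_CI. Creld2, a chaperone-like protein of the endoplasmic reticulum, was at 9.42 to 41.7 CPM in p21+/Tert livers, 18.5 in L981_CI and 119.6 in L984_CI.

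The remaining lists were read against the same shares, 4.28% of all genes higher and 4.03% lower at an unadjusted p under 0.05. Of 24 Nrf2 target genes, 1 was higher and 3 lower. Of these 24, 8 were below the range in liver L984_CI alone and 4 in both livers (9.77% and 8.53% of all genes). Another 4 were above it in L981_CI alone, 1 in L984_CI alone and 1 in both (10.5%, 13.8% and 7.74% of all genes). Their median log2 fold change was -0.59 without L981_CI and 0.18 without L984_CI. Of 19 bile acid genes, 0 were higher and 4 lower. Of 24 pericentral genes, 1 was higher and 2 lower, and 8 were below the range in liver L984_CI alone (9.77% of all genes). Of 47 G2 and M phase genes tested, 1 was higher. In 15 of them livers L981_CI and L984_CI were on opposite sides of the range (10.9% of all genes). Of 22 clock genes, 1 was lower, Bhlhe41 (28.2, 16.1, 10.1 and 2.82 against 2.78 and 1.22 CPM, adjusted p = 0.569), and its p21+/Tert values ran down to those of the p21+/TertCi livers. The p21+/Tert livers differed widely in this list, with median deviations of 0.69, 0.55, -0.08 and -0.86 against -0.59 and -0.14. Arntl had 13, 20 and 36 reads in livers p_961, p_663 and p_941, 516 in NT_992, and 325 and 195 in L981_CI and L984_CI. Npas2 had 0, 3, 9 and 222 reads against 112 and 22. Sinusoidal endothelial markers and stellate cell and fibroblast markers had 0 genes at an unadjusted p under 0.05 in either direction. Of the 16 stellate cell and fibroblast markers, however, 8 were above the range in liver L981_CI alone (10.5% of all genes), and their median log2 fold change was 0.61 without L984_CI and -0.51 without L981_CI. Col3a1, a fibrillar collagen, was at 3.1 to 31 CPM in p21+/Tert livers, 39.2 in L981_CI and 5.99 in L984_CI. Of 9 bile duct markers tested, 3 were higher, with Spp1 (osteopontin) at 60.1, 36.5, 49.3 and 35.7 against 107 and 94.3 CPM (1.15 ± 0.25, adjusted p = 0.402), while the defining keratin Krt19 was at 0.432 to 1.93 against 2.78 and 0.468 CPM. Of 10 B and plasma cell markers tested, 1 was higher and 1 lower, the latter being Jchain at 8.72 to 80.2 against 4.44 and 1.4 CPM. The higher gene, Derl3, had 34, 148, 24 and 118 reads against 39 in L981_CI and 1530 in L984_CI. Its difference thus came from liver L984_CI. Another 6 were below the range in L984_CI alone (9.77% of all genes), and 2 lay inside it in both livers. The median log2 fold change of the list was -3.20 without L981_CI, -0.31 without L984_CI and 0.32 without NT_992.

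Because the transgenes use the Cdkn1a promoter, the genes around Cdkn1a on chromosome 17 were read as well. Of 44 genes tested within 2 Mb of its start, 2 were at an unadjusted p under 0.05 (4.55%). Of all genes, 4.28% were higher and 4.03% lower at that p. Both p21+/TertCi livers were below the range in 6 of the 44 (13.6%, against 8.53% of all genes). They were above it in 3 (6.82%, against 7.74% of all genes), and the median log2 fold change was 0.00. Glo1, glyoxalase 1, which detoxifies methylglyoxal (chr17:30592861-30612659 on GRCm38.p6), was at 293, 294, 281 and 276 CPM against 139.5 and 145 CPM. Its log2 fold change was -1.01 ± 0.20 (adjusted p = 0.374; by DESeq2, adjusted p = 5.51e-07). The livers of each genotype lay close together and the genotypes did not overlap. Its neighbor Btbd9 was at 17.5 to 21.8 against 14.5 and 21.8 CPM (adjusted p = 0.909), and Rnf8, the other gene, at 15 to 20 against 11 and 11.6 CPM (adjusted p = 0.582).

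**Figure D5:**
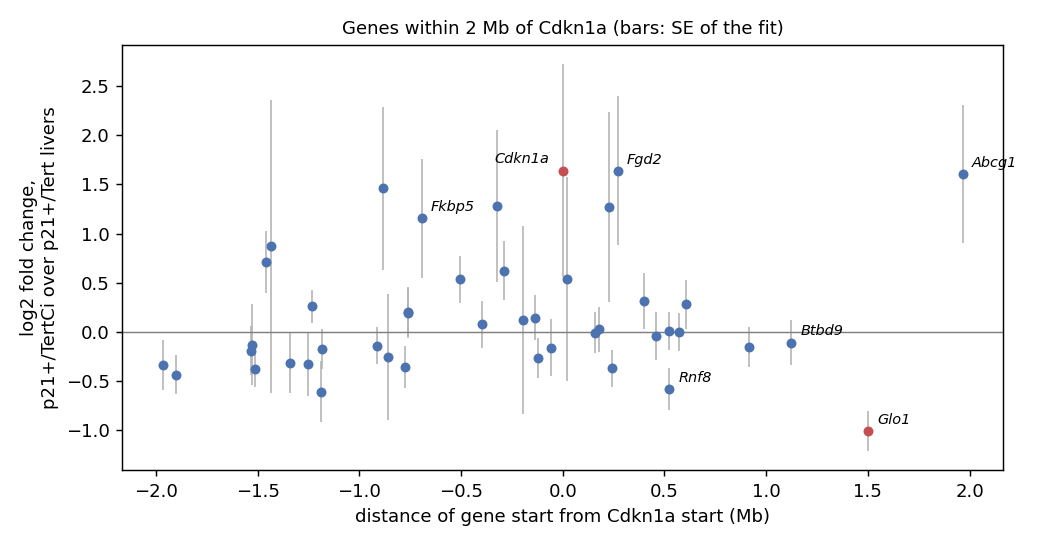
Log2 fold change of p21+/TertCi over p21+/Tert livers for the 44 tested genes whose start lies within 2 Mb of the Cdkn1a start, against distance in Mb; bars are the SE of the edgeR fit. Glo1, at -1.01, lies below all the others, while Btbd9 beside it is near 0.

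In the tumors, fitted in 1 model of 4 groups over all 12 libraries, 9 of the 12 genes that were lower in p21+/TertCi livers were also lower in p21+/TertCi tumors and 3 were higher, and 10 of the 12 that were higher in livers were higher there and 2 lower. The unadjusted edgeR p was under 0.05 in the tumors for 5 of the former and 2 of the latter. The matching shares of all genes in the tumors are not given here, so these counts are a description and no support for the liver values. Of the male-biased and Mup genes, Susd4 was higher there, at 0.224, 0.864, 0.583 and 0.895 CPM in p21+/Tert tumors and 4.99 and 3.28 CPM in p21+/TertCi tumors. Mup21 was higher there as well, at 2.28, 1.17, 11.4 and 14.6 CPM in p21+/Tert tumors and 19.8 and 24.4 CPM in p21+/TertCi tumors. Hsd3b5 was at most 1.33 CPM in any tumor, and Mup13 was at most 0.823 CPM in all tumors but that of mouse L984_CI, at 2.93 CPM, so neither gives a direction. Tumors and livers of the same number share a mouse, so the tumors are no separate animals.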

How the data were processed

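The authors deposited raw counts: poly(A) RNA was sequenced as paired reads, aligned with Subread to mm10 with mCherry added, and counted per gene with featureCounts 1.6.4. Their fit with DESeq2 corrected for sequencing run, which could not be repeated. Each deposited table holds whole read counts for 24421 symbols, without normalization.

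Samples were grouped by their labels. The comparison was 2 p21+/TertCi against 4 p21+/Tert livers, with edgeR 4.0.16 in R 4.3.3 (TMM, filterByExpr, quasi-likelihood F test, Benjamini-Hochberg, threshold 0.05). Replicates are separate mice, and p-values measure the spread between these samples. CPM use the TMM-scaled library size of that fit. SE is the log2 fold change over the square root of F. List deviations use log2 CPM with a prior count of 2. The method was tested on simulated data.

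Named genes were Tert, Cdkn1a, the 12 of smallest p in each direction with both p21+/TertCi livers outside the p21+/Tert range, and the 2 of smallest p in each list; others were named after their values were seen. The members and lists were chosen with earlier results of these data known. Positions are RefSeq on GRCm38.p6, with 23204 symbols matched directly and 1096 by a synonym. Alternatives were DESeq2 1.42.0, RLE factors, no filter, a stricter filter, 12 libraries, thinning to the smallest library, and each liver left out. Some genes of the lists are counted but not reported here by name.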

Additional observations from a re-analysis of the deposited data

Results flagged for a closer look

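In 4 of the 92 genes tested, all named by rule, 1 p21+/Tert liver lay far from the other 3, by a test of the gap against the range that flags about 1 group in 20 by chance, so a count of 4 is near what chance gives. Cdkn1a was at 26.6 CPM in liver NT_992 and at 1.53 to 3.89 CPM in the others. Jchain, a plasma cell gene, was at 80.2 CPM in liver NT_992 and at 8.72 to 16 CPM in the others. Serpina3n was at 865 CPM in liver p_941 and at 255 to 322 CPM in the others, and Cebpb was at 95.8 CPM in liver p_663 and at 144 to 150 CPM in the others.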

How the results depend on the processing

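No paired analysis was possible because no animal number is shared by the genotypes. DESeq2 called 64 genes higher and 110 lower where edgeR called 0, of which 165 had both p21+/TertCi livers outside the range and 7 had 1 of 2 inside; the cause was not tested. RLE factors, no filter, the stricter filter, 12 libraries and thinning each left 0 calls in edgeR. Leaving out 1 liver gave from 0 to 78 genes higher and from 0 to 2 lower at an adjusted p under 0.05, with all calls in the fits without L981_CI (3 higher) or L984_CI (78 higher, 2 lower), and from 314 to 944 higher and 324 to 947 lower at an unadjusted p under 0.05; these were 331 and 347 without liver p_961, 314 and 324 without p_663, 944 higher without L984_CI, and 946 and 947 lower without NT_992 and L981_CI. With 12 libraries 328 were lower at an unadjusted p under 0.05. The count of male-biased genes with both livers below the range was 18 with RLE factors, thinning or no filter, and 12 of 18 tested without the Mup genes, an alternative added after seeing the data; their median log2 fold change ran from -3.15 to -1.95 over the livers left out. The difference on the first principal component, computed again each time, ran from 3.59 to 66.9 over the livers left out. Without p_961 it was 3.59 (exact permutation p = 0.9). Log2 fold changes that turned sign with 1 liver left out ran from -1.09 to 4.61 for Apoa4, -2.07 to 2.77 for Ccl5, -0.41 to 3.20 for Cdkn1a, -0.36 to 2.31 for Creld2, -0.66 to 2.25 for Cyfip2, -1.60 to 3.90 for Derl3, -0.39 to 0.44 for Fabp4, -2.19 to 0.15 for Gpm6a, -2.72 to 3.52 for Gzmb, -1.13 to 3.52 for H2-DMa, -0.62 to 2.57 for Itgax, -1.35 to 2.68 for Lgals3, -0.71 to 0.55 for Pck1, -0.13 to 4.48 for Serpina3n, -0.17 to 2.80 for Vsig4 and -0.29 to 1.12 for Wt1. Genes with few reads limit the comparison, since the depth of 14571716 to 23932529 reads leaves genes such as Hsd3b5 at 3 and 10 reads in the p21+/TertCi livers.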
